A study of Mus musculus with 12 samples.

Results

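The endothelin system of the mouse retina was described through 7 genes: the ligand genes Edn1, Edn2 and Edn3, the receptor genes Ednra and Ednrb, and the genes Ece1 and Ece2 for the converting enzymes. They were found by Entrez ID among 27179 gene IDs in raw count files of whole retina, and 7 of 7 passed the filter on low counts that left 16475 genes for testing. Edn2 was chosen by its measured CPM, because of its rise in 12-month knockout retina, and the other 6 were taken as its family. Poly(A) RNA had been sequenced from retinas of mice with a glial knockout of ABCA1 (genotype label Glia-ABCA1KO, here KO), a transporter that exports cholesterol and phospholipid from cells, and from mice labelled Control. The groups were 3-month KO, 3-month control, 12-month KO and 12-month control, with 3 libraries in each of the 4. The Cre driver, the allele and the strain were not given in the sources used here, and a protocol label calls the mice Astro-KO. What the controls carried was not described, though the authors' name for their 12-month comparison calls them WT. Nothing in the labels says that each library was made from its own animal, so the p-values reflect the spread among these libraries, possibly a technical one.

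Library totals ran from 29027099 to 30438026 counts. Abca1 itself was not lower in KO retina, with a mean of 36.3 ± 7.91 CPM (counts scaled to a common library size, SD, n = 3) in 12-month KO and 30.8 ± 2.66 CPM in 12-month control, and the counts cover all retinal cells and the whole gene, so they do not check a deletion in glia. Retinal cell markers were present in every library (7 cone photoreceptor markers summed to between 1026 and 1166 CPM and 8 Müller glia markers to between 4881 and 5561 CPM), and in this respect the libraries matched their tissue label. Libraries also differed in ways the genotype label does not name. Xist, the RNA of the inactive X chromosome, stood at 52.3 to 85.5 CPM in 12-month KO libraries and at 0.167 to 0.202 CPM in 12-month control libraries. It stood at 0.0686 to 0.609 CPM in 3-month KO and 0.201 to 0.272 CPM in 3-month control, so only the 12-month KO group had high Xist. The Y-linked Ddx3y ran from 19.98 to 47.4 CPM over the 12 libraries. Lens and skeletal muscle genes were higher in 3-month control, where 10 muscle markers summed to 6.28 to 10.1 CPM in 3-month KO and 80.7 to 91.6 CPM in 3-month control, and 12 lens markers to 6.72 to 9.11 CPM in 3-month KO and 41.2 to 4220 CPM in 3-month control. The libraries that stood apart from their replicates were 12-month KO replicate 1, with a chi-square per degree of freedom over genes of 21.6 and 24.9 to its replicates where those had 5.16 between them, and 3-month control replicate 2, with 43.1 and 41.9 where its replicates had 4.19. The part of these differences in the results was not tested, and values without both libraries are given where they matter.

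Endothelins are short peptides that constrict vessels and signal between neurons and glia. Their precursors are first cut by furin-type proteases and then by the endothelin converting enzymes. The receptor encoded by Ednra sits mainly on vascular smooth muscle and pericytes and prefers endothelin 1 and 2, whereas that of Ednrb binds all the endothelins and sits on endothelium, Müller glia and astrocytes. In the mouse retina, Edn2 is known as a gene that photoreceptors switch on after injury or degeneration, together with the cytokine gene Lif in Müller glia.

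The promoters of Edn2 and Ednrb are shown because they are the genes of the set whose values were higher in every 12-month KO library than in any 12-month control library. Each is the 250 bases before the start that the RefSeq promoter table gives for the gene (GRCm38.p6, 5′ to 3′ on the gene's strand), with matches to the searched motifs in capitals. The start given for Ednrb lies inside the gene's full RefSeq span, which reaches further upstream. Edn2 lies on the plus strand (chr4:120160956-120161205) and Ednrb on the minus strand (chr14:103843702-103843951).
Edn2: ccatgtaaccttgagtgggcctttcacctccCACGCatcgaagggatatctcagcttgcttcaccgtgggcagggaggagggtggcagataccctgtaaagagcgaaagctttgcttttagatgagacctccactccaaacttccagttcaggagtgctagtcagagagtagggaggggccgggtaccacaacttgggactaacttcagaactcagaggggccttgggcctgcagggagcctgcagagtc
Ednrb: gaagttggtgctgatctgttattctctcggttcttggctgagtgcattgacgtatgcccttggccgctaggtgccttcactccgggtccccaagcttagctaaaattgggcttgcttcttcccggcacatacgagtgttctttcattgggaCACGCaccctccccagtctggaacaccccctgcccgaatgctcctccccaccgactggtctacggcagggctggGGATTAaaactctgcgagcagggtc
The motifs were ACGTG and GCGTG (cores of the hypoxia response element), TGANTCA (AP-1), TTCNNNGAA (STAT) and TAATCC (OTX and CRX core), searched on both strands with no overlap between motifs among the matches shown. Of 32851 RefSeq promoters of the same length, 16.6%, 28.2%, 6.75%, 7.02% and 6.25% held them, in that order. Edn2 held only GCGTG, on the reverse strand at -219 from the start. Ednrb held GCGTG at -99 and TAATCC at -25, both on the reverse strand. These are matches of letters and not measured sites, and a missing match says only that the letters are not in this window.

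Levels can be compared between genes only per exon length, here as CPM per kilobase of merged exon. Over the 12 libraries the order was Ece1 (mean 13.4, range 11.5 to 14.6), Ece2 (12.3, 11.3 to 14.2), Edn2 (4.30, 2.42 to 10.8), Ednrb (1.59, 1.11 to 1.95), Edn1 (1.25, 0.963 to 1.69), Edn3 (0.278, 0.149 to 0.426) and Ednra (0.204, 0.0930 to 0.349). The ranges of Ece1 and Ece2 overlapped, as did those of Ednrb and Edn1 and those of Edn3 and Ednra, and in these pairs the gene named first was higher in 9, 10 and 9 of 12 libraries. The other neighbours in the order did not overlap. The converting enzymes were therefore the most abundant transcripts of the set and Edn2 the most abundant ligand, in every library of every group. Edn3 and Ednra rested on few counts, 18 to 53 and 15 to 57 per library, and since both reads of a fragment seem to have been counted, they stand for fewer fragments.

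**Figure D1:**
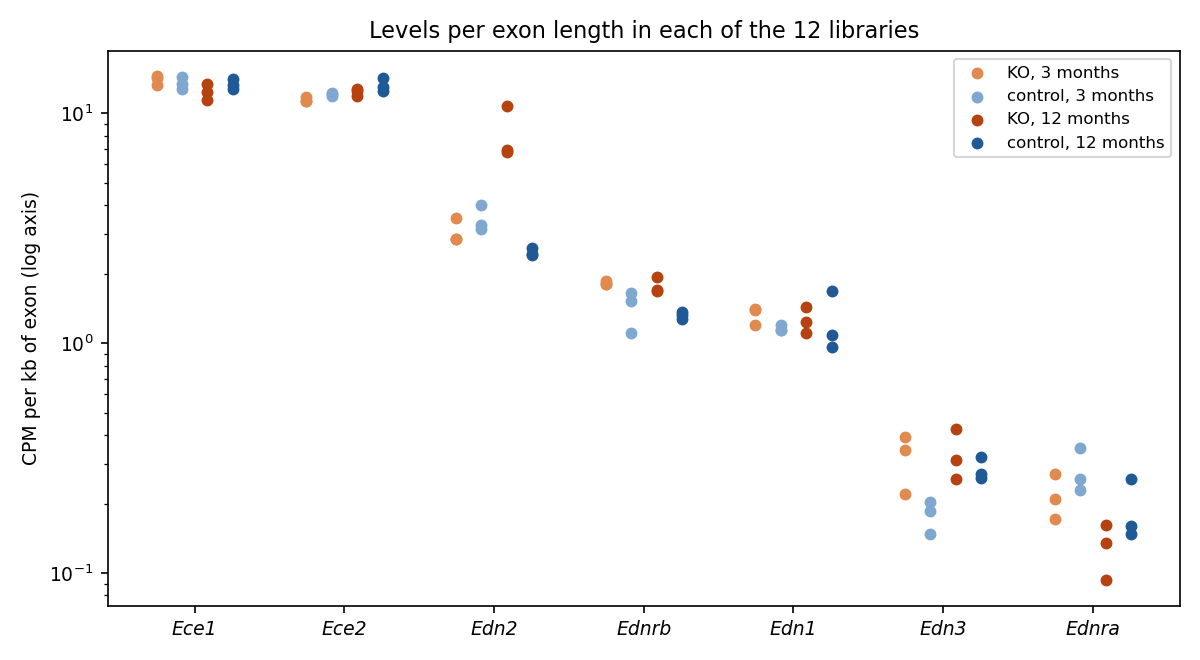
Level of each gene in each of the 12 libraries, in CPM per kilobase of exon on a log axis, with the genes in order of their mean and the 4 groups side by side (KO left of control at each age). Ece1 and Ece2 lie between 11.3 and 14.6, and Edn2 spans the widest range, 2.42 to 10.8, with the 12-month KO libraries at its top.

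None of the tests made on the family passed. At 12 months, KO against control, 0 of the 6 other genes had an adjusted p below 0.05 (edgeR quasi-likelihood test, Benjamini-Hochberg over all genes), where 0.212% of all genes did. Of the 6, 1 (Ednrb) had an unadjusted p below 0.05, beside 8.70% of all genes, and DESeq2 and limma-voom also called 0. At 3 months, 0 of 7 passed, beside 0.225% of all genes; 2 of 7 (Edn3 and Ednrb) had an unadjusted p below 0.05, beside 7.50%, and DESeq2 and limma-voom called 0. Between 12 and 3 months, 0 of 6 passed in KO, beside 2.37% of all genes, and 0 of 6 in control, beside 2.11%, with 1 (Ece1) and 0 below an unadjusted 0.05, beside 13.3% and 12.5% of all genes, and 0 by DESeq2 or limma-voom in each. The KO effect at 12 months minus that at 3 months passed for 0 of 6, beside 0.127% of all genes, with 0 below an unadjusted 0.05, beside 4.33%, and 0 by either other tool. These comparisons share libraries and are not independent of each other.

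Edn2 (Entrez 13615, chromosome 4 from 120161206 to 120167360, plus strand, GRCm38) encodes endothelin 2. The 12-month KO libraries had 15.8, 10.1 and 9.98 CPM (478, 301 and 294 counts), and the 12-month control libraries had 3.81, 3.53 and 3.58 CPM (114, 105 and 106 counts). Every KO library was above every control library. The means were 12.0 ± 3.31 CPM in KO and 3.64 ± 0.147 CPM in control (SD, n = 3), a 3.29-fold difference and a log2 fold change of 1.72 ± 0.18 (SE). No test is given because this rise chose the gene. KO replicate 1 was the highest library and stands apart from its replicates; without it the log2 fold change was 1.47. In a whole-tissue sample, more cells that express a gene and more RNA per cell cannot be told apart. The 12-month KO libraries were also the only ones with high Xist, and the part of this difference in the Edn2 values was not tested.

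At 3 months the same gene did not separate the genotypes. Edn2 had 4.15, 5.11 and 4.16 CPM in 3-month KO and 4.79, 5.83 and 4.59 CPM in 3-month control. The groups overlapped, and the log2 fold change was -0.18 ± 0.19 (SE), with adjusted p = 0.79 (edgeR quasi-likelihood test, Benjamini-Hochberg). Without 3-month control replicate 2 it was -0.07.

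With age, Edn2 moved in opposite directions in the genotypes. All 3 of the 12-month KO libraries (9.98 to 15.8 CPM) were above all 3 of the 3-month KO libraries (4.15 to 5.11 CPM), with a log2 fold change of 1.42 ± 0.18 (SE). All 3 of the 12-month control libraries (3.53 to 3.81 CPM) were below all 3 of the 3-month control libraries (4.59 to 5.83 CPM), with a log2 fold change of -0.48 ± 0.19 (SE), where 8.29% of all genes were lower without overlap. The difference between these changes was 1.90 ± 0.26 on the log2 scale, or 1.53 without 12-month KO replicate 1 and 3-month control replicate 2. These contrasts hold the 12-month libraries on which the gene was chosen and are therefore given without a test. Several marker sums also differed between the ages in KO retina without overlap. At 12 months against 3 months in KO, the 10 microglia markers summed to 64.7 to 70.1 against 50.8 to 51.4 CPM and the 8 Müller glia markers to 5129 to 5273 against 4881 to 4957 CPM, both sums higher at 12 months. Of the 8 Müller glia markers, 2 were higher at 12 months without overlap (Rlbp1 and Apoe) and 3 lower (Slc1a3, Kcnj10 and Abca8a). Only 4 of the 8 had a log2 fold change above 0, so the higher sum was not shared by the list. The sum of the 7 cone markers was lower at 12 months in KO (1026 to 1116 against 1137 to 1166 CPM). So were those of the 10 ganglion cell markers (968 to 1012 against 1016 to 1050 CPM) and the 12 pigment epithelium and melanocyte markers (104 to 132 against 140.1 to 177 CPM). Of these 12, 3 were higher without overlap (Dct, Mlana and Slc45a2) and 4 lower (Rpe65, Rgr, Lrat and Ttr). Of the cone markers 0 were higher and 3 lower without overlap, and of the ganglion cell markers 1 was higher and 2 lower. Of all genes 10.7% were higher and 11.5% lower. Of 9 microglia markers tested, 8 were higher at 12 months in KO without overlap, where 10.7% of all genes were. In control retina the microglia markers summed to 62.4 to 64.2 CPM at 12 months against 46.9 to 48.2 CPM at 3 months. The part of these cells in the Edn2 values was not tested.

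**Figure D2:**
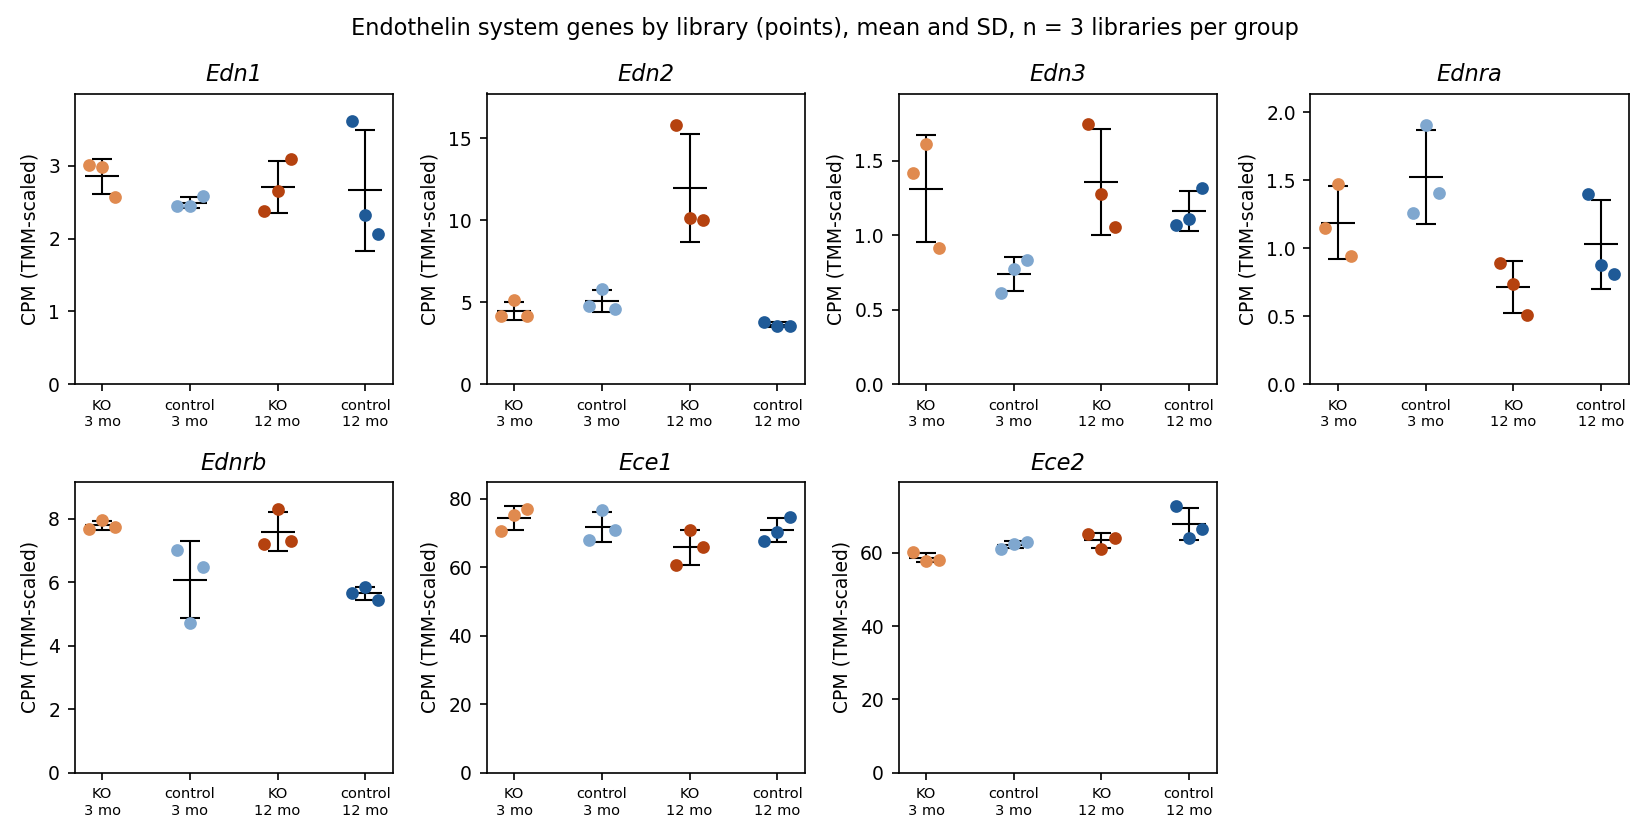
Scaled CPM of the 7 genes in each library (points), with the group mean and SD (bars, n = 3), KO left of control at each age. Edn2 stands at 9.98 to 15.8 CPM in 12-month KO against 3.53 to 3.81 CPM in 12-month control, and Ednrb is higher in KO than in control with no overlap at both ages.

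Edn1 (Entrez 13614, chromosome 13 from 42301476 to 42307990, plus strand) encodes endothelin 1, the vasoconstrictor that endothelial cells release. It had 2.38, 2.66 and 3.09 CPM in 12-month KO and 3.61, 2.32 and 2.06 CPM in 12-month control. The groups overlapped and control replicate 1 was the highest library, so the log2 fold change of 0.02 ± 0.23 (SE, adjusted p = 0.99, edgeR) ran from -0.13 to 0.31 as single libraries were left out. At 3 months it had 3.00, 2.98 and 2.57 CPM in KO and 2.45, 2.45 and 2.58 CPM in control, again overlapping (log2 fold change 0.20 ± 0.23, adjusted p = 0.81, edgeR). Edn1 changed little with age either, by -0.08 ± 0.23 on the log2 scale in KO (adjusted p = 0.94, edgeR) and by 0.10 ± 0.23 in control (adjusted p = 0.93, edgeR).

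Edn3 (Entrez 13616, chromosome 2 from 174760619 to 174784042, plus strand) encodes endothelin 3, the ligand that acts through the Ednrb receptor in neural crest and melanocyte development. At 3 months it had 1.42, 1.61 and 0.913 CPM in KO and 0.612, 0.771 and 0.837 CPM in control. KO values were higher without overlap, as in 7.97% of all genes, with counts of 42, 47 and 27 in KO against 18, 23 and 25 in control, but the log2 fold change of 0.82 ± 0.33 (SE) had an adjusted p of 0.65 (unadjusted p = 0.022, edgeR quasi-likelihood test). At 12 months the groups overlapped, at 1.75, 1.28 and 1.05 CPM in KO and 1.07, 1.11 and 1.32 CPM in control (log2 fold change 0.22 ± 0.32, adjusted p = 0.87, edgeR). Control retina had more Edn3 at 12 than at 3 months without overlap, as in 9.21% of all genes, by 0.65 ± 0.33 on the log2 scale (adjusted p = 0.45, edgeR), and KO retina differed by 0.05 ± 0.31 (adjusted p = 0.97, edgeR). The 3-month control group, the low point of the gene, was also the group with the most muscle and lens RNA, whose part in these values was not tested.

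The makeup of the ligand transcripts followed Edn2. Summed over the ligands, the 12-month KO libraries had 12.3, 8.48 and 8.53 CPM per kilobase, and the 12-month control libraries had 4.55, 3.77 and 3.73. Edn2 made up 87.5%, 81.7% and 80.1% of that sum in 12-month KO and 57.2%, 64.1% and 65.6% in 12-month control. At 3 months the shares were 61.9%, 66.2% and 66.7% in KO and 71.7%, 74.98% and 69.0% in control. Edn3 took 3.00% to 3.67% of the ligand sum in 12-month KO and 5.71% to 8.58% in 12-month control, while its own level overlapped between these groups. These shares rest on the gene chosen for its rise and are given as a description.

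**Figure D3:**
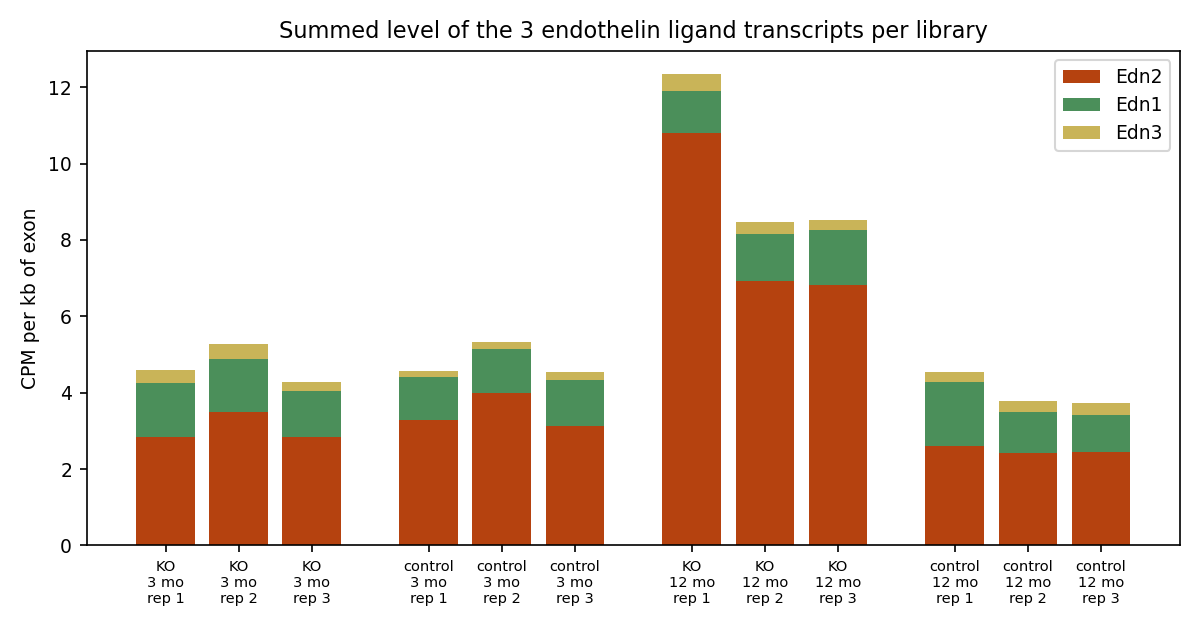
Summed level of the ligand transcripts in each library, in CPM per kilobase of exon, stacked by gene, with KO left of control at each age. The 12-month KO bars reach 8.48 to 12.3, against 3.73 to 4.55 in 12-month control, and Edn2 fills 80.1% to 87.5% of them.

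Ednrb (Entrez 13618, chromosome 14 from 103814615 to 103844508, minus strand) encodes the type B receptor. In 12-month KO retina it had 7.20, 8.31 and 7.30 CPM, against 5.68, 5.85 and 5.43 CPM in 12-month control. The groups did not overlap, and the 1.34-fold difference (log2 fold change 0.43 ± 0.15, SE) had an adjusted p of 0.41 (unadjusted p = 0.011, edgeR quasi-likelihood test). The exact permutation test (two-sided) returned p = 0.1, the smallest that 3 against 3 libraries allow. At 12 months 16.6% of all genes had no overlap between the groups, 8.32% with KO higher.

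At 3 months Ednrb had 7.69, 7.95 and 7.75 CPM in KO and 7.03, 4.73 and 6.49 CPM in control. KO was again higher without overlap (log2 fold change 0.36 ± 0.15, SE, adjusted p = 0.65, edgeR), where 15.6% of all genes had no overlap and 7.97% were higher in KO. The low control value belongs to replicate 2, and without that library the log2 fold change was 0.21. Higher in KO without overlap at both ages was a pattern of 171 genes, 1.04% of those tested, and Ednrb was 1 of them. Age changed the gene by -0.04 ± 0.15 on the log2 scale in KO (adjusted p = 0.96, edgeR) and -0.11 ± 0.15 in control (adjusted p = 0.87, edgeR), and the KO effect differed between the ages by 0.07 ± 0.21 (adjusted p = 1, edgeR).

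Marker sums of cells that carry this receptor were set beside it. The 6 astrocyte markers summed to 50.8 to 52.4 CPM in 12-month KO and 45.2 to 48.5 CPM in 12-month control, without overlap. The 8 Müller glia markers summed to 5129 to 5273 CPM in 12-month KO and 5260 to 5413 CPM in 12-month control, and the 10 endothelial markers to 265 to 305 CPM in 12-month KO and 279 to 290 CPM in 12-month control, both overlapping. At 3 months the astrocyte markers summed to 48.3 to 52.0 CPM in KO and 46.6 to 60.4 CPM in control and the endothelial markers to 276 to 292 CPM in KO and 284 to 294 CPM in control, both overlapping. The sum of the Müller glia markers at 3 months was lower in KO without overlap, at 4881 to 4957 CPM in KO and 5005 to 5561 CPM in control. Of these 8, 2 were lower (Glul and Apoe) and 0 higher without overlap, where 7.66% and 7.97% of all genes were. The log2 fold change was above 0 in 3 of the 8, so the lower sum was not shared by the list. None of the astrocyte, Müller glia and endothelial markers was at 0 in a group. Their part in the Ednrb values was not tested.

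Ednra (Entrez 13617, chromosome 8 from 77663029 to 77724452, minus strand) encodes the type A receptor. It had 0.892, 0.740 and 0.509 CPM in 12-month KO and 1.40, 0.874 and 0.810 CPM in 12-month control, and 1.15, 1.47 and 0.947 CPM in 3-month KO and 1.26, 1.91 and 1.41 CPM in 3-month control. KO means were lower at both ages but the groups overlapped, with log2 fold changes of -0.52 ± 0.35 at 12 months (SE, adjusted p = 0.69, edgeR) and -0.36 ± 0.33 at 3 months (adjusted p = 0.77, edgeR). With single libraries left out, the 12-month value ran from -0.72 (without 12-month KO replicate 1) to -0.24 (without 12-month control replicate 1), and the 3-month value from -0.54 (without 3-month KO replicate 2) to -0.16 (without 3-month control replicate 2). Between 12 and 3 months the KO values did not overlap and were lower at 12 months (log2 fold change -0.73 ± 0.35, adjusted p = 0.38, edgeR), where 22.2% of all genes had no overlap and 11.5% were lower. In control retina the ages overlapped (log2 fold change -0.57 ± 0.33, adjusted p = 0.54, edgeR), and without 3-month control replicate 2 the value was -0.37. The 10 pericyte and smooth muscle markers, cells that carry this receptor, summed to 46.9 to 56.0 CPM in 12-month KO and 59.2 to 62.7 CPM in 3-month KO, and to 49.4 to 56.1 CPM in 12-month control and 61.3 to 80.2 CPM in 3-month control. Their part in the Ednra values was not tested.

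The ratio of the receptors was described without a test. Per exon length, Ednrb exceeded Ednra 10.4-, 14.4- and 18.4-fold in the 12-month KO libraries and 5.20-, 8.59- and 8.61-fold in the 12-month control libraries, without overlap. At 3 months the ratios were 8.61, 6.93 and 10.5 in KO and 7.18, 3.18 and 5.93 in control, which overlapped. Neither gene passed its own test at either age. Ednra counts of 15 to 27 in 12-month KO limit the precision of the ratio.

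Ece1 (Entrez 230857, chromosome 4 from 137862237 to 137965229, plus strand) encodes the main converting enzyme. It had 60.7, 70.9 and 66.0 CPM in 12-month KO and 67.8, 70.3 and 74.9 CPM in 12-month control (log2 fold change -0.11 ± 0.08, SE, adjusted p = 0.71, edgeR). At 3 months it had 70.6, 75.4 and 77.2 CPM in KO and 68.1, 76.7 and 70.9 CPM in control (log2 fold change 0.05 ± 0.08, adjusted p = 0.86, edgeR). The groups overlapped at both ages. Within KO retina the level at 12 months was lower by 0.18 ± 0.08 on the log2 scale (unadjusted p = 0.035, adjusted p = 0.32, edgeR), with overlap, and in control retina the change was -0.02 ± 0.08 (adjusted p = 0.96, edgeR).

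Ece2 (Entrez 107522, chromosome 16 from 20629851 to 20645915, plus strand) encodes a related enzyme of neurons and endocrine cells. Its reads can come from a read-through transcript with the neighbouring Eef1akmt4 on the same strand, so its values are uncertain. At 12 months it had 65.0, 61.0 and 63.9 CPM in KO and 72.6, 64.1 and 66.5 CPM in control, overlapping (log2 fold change -0.10 ± 0.07, SE, adjusted p = 0.71, edgeR). At 3 months it had 60.0, 57.8 and 58.0 CPM in KO and 61.1, 62.3 and 63.0 CPM in control, lower in KO without overlap (log2 fold change -0.09 ± 0.07, adjusted p = 0.75, edgeR), where 7.66% of all genes were lower without overlap. Ece2 was higher at 12 than at 3 months without overlap in both genotypes, by 0.11 ± 0.07 in KO (adjusted p = 0.56, edgeR) and 0.12 ± 0.07 in control (adjusted p = 0.52, edgeR), where 10.7% and 9.21% of all genes were higher without overlap. Neither enzyme gene differed by more than 0.18 on the log2 scale in any of these comparisons.

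**Figure D4:**
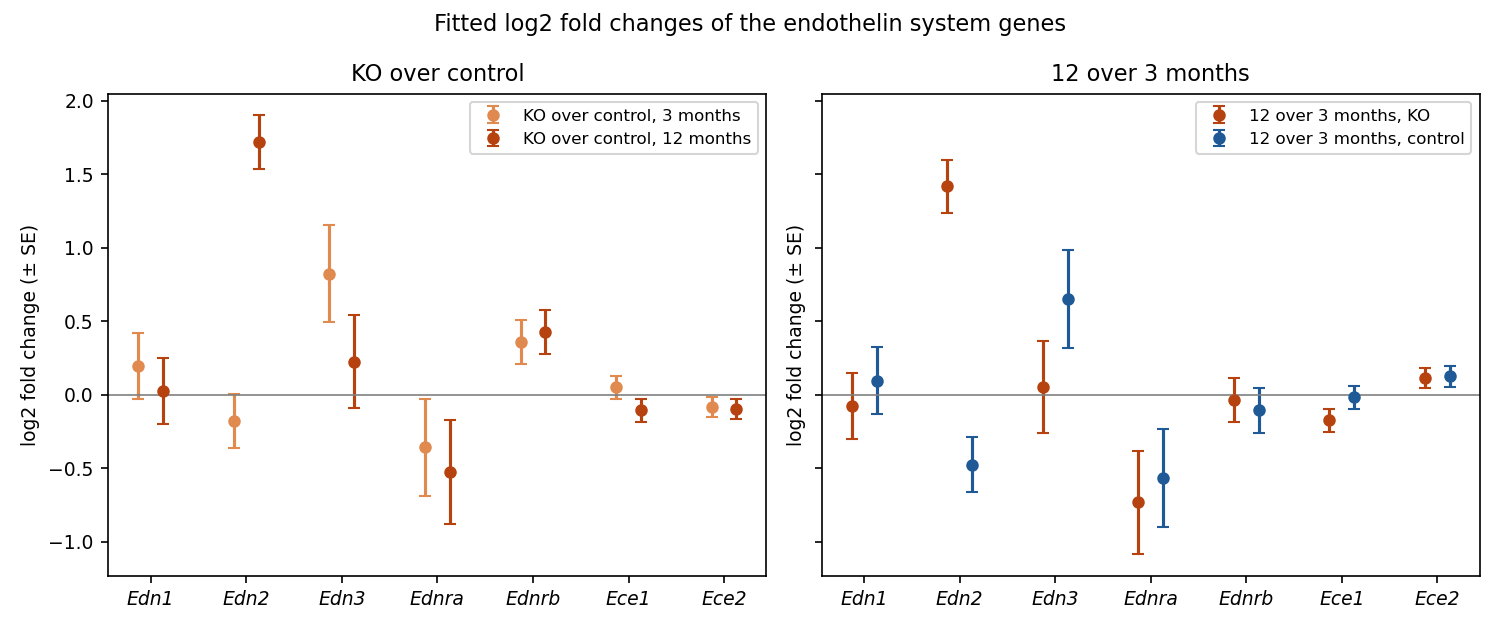
Fitted log2 fold changes with SE of the 7 genes, KO over control at each age (left) and 12 over 3 months in each genotype (right). Edn2 reaches 1.72 at 12 months and -0.18 at 3 months, and in the age contrasts it lies at 1.42 in KO and -0.48 in control.

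The authors' deposited table of the 12-month comparison gave a log2 fold change of 0.85 for Edn2, smaller than the 1.72 fitted here from the counts, and its narrow range of values was taken as shrunken. The authors' deposited table gave 0.25 for Ednrb with an adjusted p of 0.419, and -0.08 for Ednra with an adjusted p of 0.87. Its remaining values in the authors' deposited table were 0.01 for Edn1, 0.05 for Edn3, -0.09 for Ece1 and -0.08 for Ece2, with adjusted p from 0.85 to 0.997.

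Genes around the endothelin system were taken from 5 lists, each described by its counts and its median beside the median of all genes, which was -0.002 at 12 months and 0.002 at 3 months on the log2 scale, KO over control. The first list held 11 genes for the processing and clearance of endothelins, of which 8 were tested, and Kel, Cma1 and Mcpt4 had no count in any library. KO against control, 0 of 8 passed at either age (edgeR), and 0 by DESeq2 or limma-voom. At 12 and 3 months 0 and 2 of 8 were below an unadjusted 0.05, beside 8.70% and 7.50% of all genes, and the list medians were -0.04 and -0.12. Without overlap, 1 of 8 was lower in KO at each age and 0 higher, where 8.33% and 7.66% of all genes were lower. Furin, which makes the first cut of the precursor, had 96.3, 104 and 99.3 CPM in 12-month KO and 105, 98.1 and 98.7 CPM in 12-month control. The lysosomal carboxypeptidase gene Ctsa, whose product degrades endothelin 1, averaged 95.8 ± 2.04 CPM in 12-month KO and 95.7 ± 8.37 CPM in 12-month control. Both overlapped between the groups.

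The second list held 32 genes of endothelin receptor signalling, from G proteins and phospholipase C to protein kinases and Trpc channels, and 32 of 32 were tested. KO against control, 0 passed at either age (edgeR), with 2 and 4 of 32 below an unadjusted 0.05 at 12 and 3 months, beside 8.70% and 7.50% of all genes, and 0 by DESeq2 or limma-voom, and medians of -0.004 and 0.06. Without overlap, 3 of 32 were higher and 3 lower in KO at 12 months, where 8.32% and 8.33% of all genes were. At 3 months 7 of 32 were higher and 1 lower in KO without overlap, where 7.97% and 7.66% of all genes were. The most abundant were Gnas, for a stimulatory G protein subunit, at 716 ± 90.2 CPM in 12-month KO and 716 ± 23.4 CPM in 12-month control, and the protein kinase C gene Prkca, at 277 ± 21.0 CPM in 12-month KO and 295 ± 10.5 CPM in 12-month control. With age 1 of 32 passed in KO, beside 2.37% of all genes, and 2 of 32 in control, beside 2.11%. Itpr2, for a calcium release channel of astrocytes and other cells, was higher at 12 months in KO (10.1, 12.8 and 13.4 CPM at 12 months against 7.96, 7.92 and 9.37 CPM at 3 months, adjusted p = 0.05 after rounding up, edgeR) and in control (10.2, 11.2 and 12.8 CPM at 12 months against 7.37, 7.88 and 7.87 CPM at 3 months, adjusted p = 0.033, edgeR). Rgs5, a pericyte gene that damps signalling by G proteins, was lower at 12 months in control (7.18, 5.72 and 5.84 CPM at 12 months against 10.1, 9.45 and 9.10 CPM at 3 months, adjusted p = 0.026, edgeR). In KO the Itpr2 call held in 12 of 23 alternatives and was lost with RLE factors and without 10 of the 12 libraries left out singly (all but 3-month control replicate 2 and 12-month KO replicate 1), with adjusted p up to 0.22 (edgeR). In control the Itpr2 and Rgs5 calls each held in 18 of 23 and were lost with only the libraries compared and without 3-month control replicate 1 or 3 or 12-month control replicate 2 or 3, with adjusted p up to 0.18 and 0.15 (edgeR).

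The third list held 17 genes of the signals between injured photoreceptors and Müller glia, of which 15 were tested. At 12 months 0 of 15 passed, KO against control (edgeR), with 7 below an unadjusted 0.05, 2 called by DESeq2 and 3 by limma-voom, and a median of 0.16. Below an unadjusted 0.05 were 8.70% of all genes, and DESeq2 and limma-voom called 127 and 163 of all genes. In 7 of 15 the KO libraries were higher without overlap (Lif, Stat3, Gfap, Cebpd, Bdnf, Mt1 and Mt2, named after their values were seen) and in 0 lower, where 8.32% of all genes were higher. The list was chosen with earlier results of these data known, so these counts beside the shares of all genes are a description only. At 3 months 0 of 15 passed, 0 had an unadjusted p below 0.05, DESeq2 and limma-voom called 0, the median was -0.01 and in 0 of 15 did the groups not overlap. Of all genes 7.50% had an unadjusted p below 0.05 and 15.6% had no overlap.

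Lif, the cytokine gene that Müller glia switch on after photoreceptor injury in the mouse, had 1.88, 2.62 and 2.004 CPM in 12-month KO and 0.768, 0.706 and 1.11 CPM in 12-month control. The log2 fold change was 1.33 ± 0.32 (SE) with an adjusted p of 0.10 (edgeR), and 4 of 23 alternatives called it: DESeq2, limma-voom, and the fits without 3-month control replicate 2 alone or with 12-month KO replicate 1. Over the alternatives the adjusted p ran up to 0.44 (edgeR). With age 1 of 15 passed in KO, beside 2.37% of all genes, and 2 of 15 in control, beside 2.11%. In KO retina Lif rose with age, to 2.17 ± 0.397 CPM at 12 months against 0.895 ± 0.160 CPM at 3 months (SD, n = 3, adjusted p = 0.033, edgeR). That call held in 18 of 23 alternatives and was lost without any 1 of the 3-month KO libraries or without 12-month KO replicate 2 or 3, with adjusted p up to 0.17 (edgeR). The microglia and Müller glia marker sums were higher at 12 months in the same contrast, as given for Edn2, though single Müller glia markers went both ways. The part of these cells in the Lif values was not tested. The metallothionein gene Mt2 had 17.6, 17.4 and 18.1 CPM in 12-month KO and 7.78, 8.95 and 13.2 CPM in 12-month control (log2 fold change 0.82 ± 0.18, adjusted p = 0.082, edgeR). Of 23 alternatives 9 called Mt2, and the adjusted p ran up to 0.41 (edgeR). Among the 9 were the looser threshold of 0.1 on the same fit and the fits without 3-month control replicate 1 or 2 or 12-month control replicate 3. In control retina the neurotrophin gene Bdnf fell with age, to 4.67 ± 0.398 CPM at 12 months against 8.60 ± 1.23 CPM at 3 months (adjusted p = 0.0022, edgeR, held in 23 of 23 alternatives). The transcription factor gene Cebpd fell in control as well, to 10.5 ± 0.387 CPM at 12 months against 17.9 ± 1.83 CPM at 3 months (adjusted p = 0.013, edgeR). It held in 19 of 23 and was lost, at adjusted p up to 0.066 (edgeR), without 3-month control replicate 3 or any 1 of the 12-month control libraries. The most abundant genes of the list were Cntfr, at 153 ± 11.6 CPM in 12-month KO and 159 ± 1.37 CPM in 12-month control, and Stat3, at 95.2 ± 2.30 CPM in 12-month KO and 84.9 ± 4.58 CPM in 12-month control, with adjusted p of 0.83 and 0.57 (edgeR).

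The fourth list held 16 genes of the hypoxia response, and 16 of 16 were tested. At 12 months 0 passed, KO against control (edgeR), with a median of -0.14. Below an unadjusted 0.05 were 5 of 16, beside 8.70% of all genes. DESeq2 called 1 of 16 and limma-voom 3, where they called 127 and 163 of all genes. In 7 of 16 the KO libraries were lower without overlap (Epas1, Bnip3, Egln1, Egln3, Slc2a1, Pdk1 and Ldha, named after their values were seen), where 8.33% of all genes were lower, and in 1 of 16 (Hif1a) higher, where 8.32% were. This list too was chosen with earlier results of these data known, so these counts are a description only. Ldha, for lactate dehydrogenase, had 1332, 1155 and 1084 CPM in 12-month KO and 1443, 1601 and 1381 CPM in 12-month control (log2 fold change -0.31 ± 0.08, adjusted p = 0.14, edgeR), and the glycolytic gene Pgk1 had a log2 fold change of -0.23 ± 0.07 (adjusted p = 0.31, edgeR) with overlap. At 3 months 0 passed, 0 were below an unadjusted 0.05, beside 7.50% of all genes, DESeq2 and limma-voom called 0 and the median was -0.02. In 3 of 16 (Egln3, Ldha and Pgk1) the KO libraries were lower without overlap at 3 months, where 7.66% of all genes were lower, and in 0 higher. Of these, Egln3 and Ldha were lower without overlap at both ages. With age 1 of 16 passed in KO, beside 2.37% of all genes, and 1 of 16 in control, beside 2.11%. The oxygen-regulated factor gene Epas1 fell in KO, to 217 ± 10.1 CPM at 12 months against 261 ± 5.39 CPM at 3 months (adjusted p = 0.033, edgeR). The call held in 16 of 23 alternatives and was lost with upper quartile factors, with no filter, without any 1 of the 3-month KO libraries and without 12-month KO replicate 1 or 2, with adjusted p up to 0.20 (edgeR). The oxygen sensor gene Egln1 rose in control, to 210.0 ± 19.6 CPM at 12 months against 164 ± 4.88 CPM at 3 months (adjusted p = 0.024, edgeR). It held in 18 of 23 and was lost with only the libraries compared and without 3-month control replicate 1 or 3 or 12-month control replicate 1 or 2, with adjusted p up to 0.18 (edgeR).

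The fifth list held 35 genes of other vasoactive peptides and of nitric oxide, of which 28 were tested. KO against control, 0 of 28 passed at either age (edgeR), with 2 and 1 of 28 below an unadjusted 0.05 at 12 and 3 months, beside 8.70% and 7.50% of all genes, and 0 by DESeq2 or limma-voom, and medians of 0.07 and -0.05. Without overlap, 1 of 28 was higher (Ramp2, for a partner of the adrenomedullin receptor) and 1 lower (Nos3, the endothelial nitric oxide synthase gene) in KO at 12 months, and 0 higher and 2 lower (Agt and Npr2) at 3 months. These shares did not exceed those of all genes, 8.32% higher and 8.33% lower at 12 months and 7.97% and 7.66% at 3 months. Gucy1a1, for a subunit of the nitric oxide receptor, had 157 ± 5.15 CPM in 12-month KO and 163 ± 3.88 CPM in 12-month control, and the natriuretic peptide receptor gene Npr2 had 119 ± 8.93 CPM in 12-month KO and 132 ± 6.42 CPM in 12-month control. Both overlapped at 12 months, with adjusted p of 0.86 and 0.59 (edgeR).

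**Figure D5:**
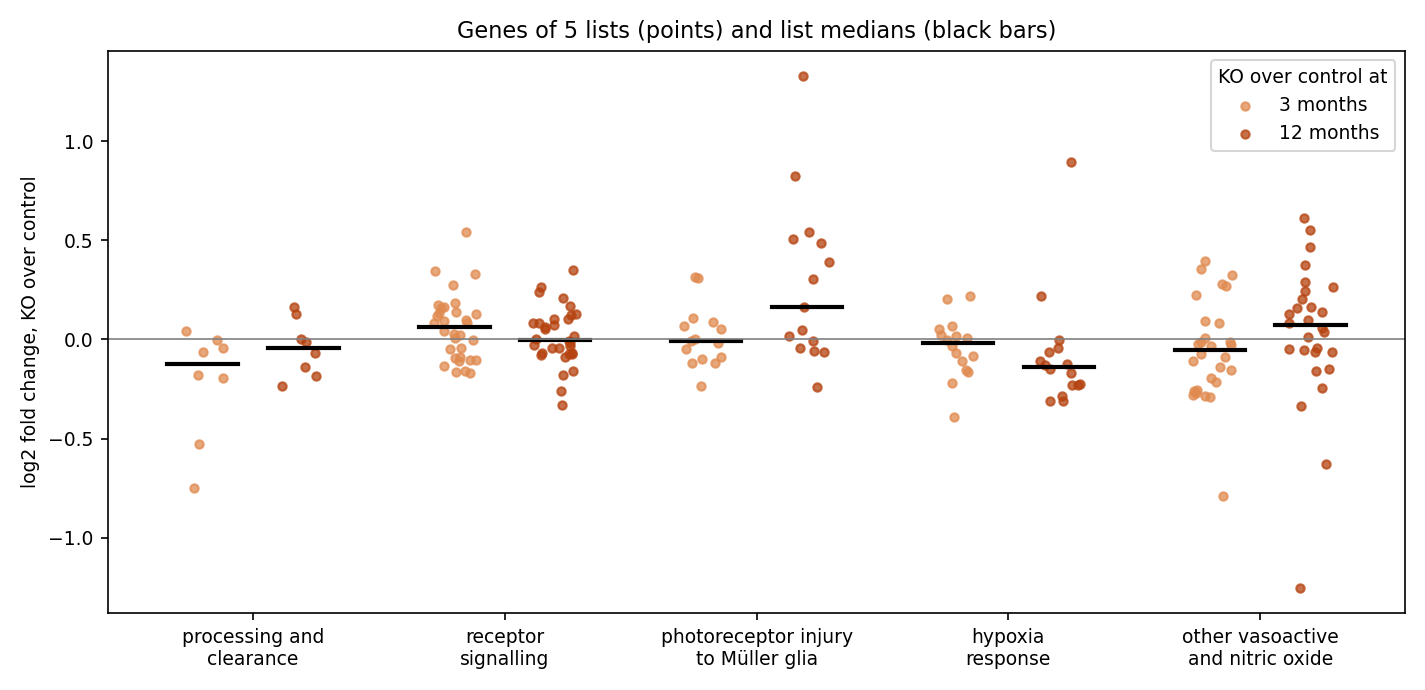
Log2 fold change of each tested gene of the 5 lists, KO over control at 3 and 12 months (points), with the list medians (bars). The injury list has a median of -0.01 at 3 months and 0.16 at 12 months, and the hypoxia list -0.02 and -0.14. The lists were chosen with earlier results of these data known.

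The genes whose log2 CPM was most like that of Edn2 over the 12 libraries, among 14085 named genes with a mean of at least 1 CPM, were Tsacc (Pearson r = 0.961), Gsto1 (0.929), Xist (0.898), 1110004F10Rik (0.893) and Dmac2l (0.891). Without the 12-month KO libraries (n = 9) the coefficients were 0.707, 0.485, -0.166, 0.45 and 0.078, so the likeness was lower in the other groups. For Ednrb the 5 most alike were Zc3h14 (0.939), Tmem41b (0.93), Zc2hc1a (0.929), Fut9 (0.929) and Otud6b (0.924), and without 3-month control replicate 2 (n = 11) the coefficients were 0.899, 0.906, 0.887, 0.882 and 0.881. These are descriptions over libraries that share groups, and no p is given for them.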

How the data were processed

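Stranded poly(A) libraries came from 12 mouse retina samples (4 groups of 3) whose RNA integrity number exceeded 8.0, per the labels' protocols. The submitters' processing notes name HISAT2 2.1.0, GRCm38, featureCounts 1.6.4 and DESeq2 1.22.1. Each library's file holds the raw counts that the authors deposited, by Entrez ID. A headerless table of the 12-month comparison, deposited by the authors, gave the log2 values and adjusted p-values quoted as theirs. How the counting used strand and reads with several alignments was not given in the sources used here. Edn1, Edn2, Ednra, Ednrb, Ece1 and Ece2, which overlap other annotated transcripts, can hold reads of those.

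Of 27179 IDs, 25275 were named from a RefSeq table of GRCm38.p6, and exon lengths came from GENCODE M21. Between 60.7% and 70.2% of counts from 1 to 20 were even, against 48.6% to 50.7% of those from 101 to 400, so both reads of a fragment seem to have been counted. Chi-square per degree of freedom between replicates was 3.52 to 43.1, so none was a copy. Counts were fitted with edgeR 4.0.16 in R 4.3.3 (filterByExpr, TMM, robust quasi-likelihood, 1 coefficient per group, 12 libraries, common biological coefficient of variation 0.11), with Benjamini-Hochberg adjustment over 16475 genes and a threshold of 0.05. The model was also run on simulated counts drawn from its own fitted spread. Those counts held no libraries that stand apart from their replicates, so the run does not cover that feature of the data. CPM use TMM-scaled library sizes, and log2 CPM a prior count of 2. DESeq2 1.42.0 and limma 3.58.1 (voom with quality weights), other scalings and filters, halved counts and left-out libraries were alternatives.

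The genes of the set and the lists were chosen with earlier results of these data known. The genes named were the 7, Abca1 and Xist, in each list the members called in a comparison (up to 4) or else the 2 most abundant, and the 5 most like Edn2 and Ednrb. Other genes (Ddx3y, Mt2, the most abundant members of lists with a call, and genes whose groups did not overlap) were named after their values had been seen. Edn2 has no p in contrasts that hold 12-month libraries.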

Additional observations from a re-analysis of the deposited data

Results flagged for a closer look

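The change of Edn2 with age ran in opposite directions in the genotypes: each 12-month KO library lay above each 3-month KO library, and each 12-month control library lay below each 3-month control library. The log2 changes were 1.42 in KO and -0.48 in control, which differ by 1.90. This difference was not tested, because the gene was chosen on the 12-month libraries. With 3 libraries in each group, no gap test for a single outlying value of a gene was made.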

How the results depend on the processing

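None of the tests made on the set passed under any of 23 alternatives (22 for the difference of the KO effects). Edn2 was tested only in KO against control at 3 months, where it did not pass. The lowest adjusted p over these tests was 0.091, for Ednrb at 12 months without 3-month control replicate 2 and 12-month KO replicate 1 (edgeR). Over the alternatives the log2 fold change of Edn2 ran from 1.47 to 1.83 for KO against control at 12 months, from 1.17 to 1.53 for 12 against 3 months in KO and from -0.55 to -0.37 in control. The counts of all genes called depended on the tool and on the libraries that stand apart, and the cause was not tested. KO against control at 12 months called 35 genes, against 66 at a threshold of 0.1, 64 with no filter, 163 with limma-voom, 127 with DESeq2, 421 without both libraries and 13 to 166 with single libraries left out. KO against control at 3 months called 37, against 76 with limma-voom, 63 with DESeq2, 58 without both libraries and 21 to 41 with single libraries left out. The age contrast in KO called 390, against 1268, 592, 1069 and 187 to 717 in the same order. The age contrast in control called 347, against 760, 571, 1040 and 201 to 479, and 560 at a threshold of 0.1 and 198 with only the libraries compared. The difference of the KO effects called 21, against 56, 41, 50 and 14 to 29.

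Signs of changes near 0 turned. With age in KO, without both libraries, Edn1 was 0.01, Edn3 -0.17 and Ednrb 0.001, and by limma-voom Edn3 was -0.063 and Ednrb 0.013. With age in control, Edn1 was -0.014 by limma-voom, and Ece1 was 0.03 without both libraries and 0.027 by limma-voom. The difference of KO effects of Ece2 was 0.008 with upper quartile factors. With single libraries left out, the ranges that crossed 0 were -0.13 to 0.31 for Edn1 in KO against control at 12 months, -0.18 to 0.01 for Edn1, -0.17 to 0.22 for Edn3 and -0.11 to 0.001 for Ednrb with age in KO, -0.19 to 0.25 for Edn1, -0.258 to 0.011 for Ednrb and -0.059 to 0.03 for Ece1 with age in control, and -0.33 to 0.11 for Edn1, -0.36 to 0.12 for Ednra, -0.048 to 0.222 for Ednrb (0.259 without both libraries) and -0.051 to 0.04 for Ece2 in the difference of KO effects.

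Libraries of 2 groups with the same replicate number did not deviate together over genes (correlations from -0.08 to 0.04). The labels do not state that the numbers pair the samples, and these correlations cannot exclude a weak pairing. With the replicate number as a block, 40, 38, 368, 317 and 22 genes were called in the 5 comparisons, and 0 of the tests made on the set passed. Edn3 and Ednra, with 15 to 57 counts a library, are limited by depth.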

Other observations

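The KO effect averaged over both ages was fitted after the data had been seen. It was 0.39 ± 0.11 on the log2 scale for Ednrb (SE, unadjusted p = 0.0015, adjusted p = 0.16, edgeR), where 0.316% of all genes passed an adjusted p of 0.05. With single libraries left out, the Ednrb value ran from 0.32 to 0.45 with adjusted p from 0.10 to 0.36. The averaged effects of the other genes tested were 0.52 ± 0.23 for Edn3 (adjusted p = 0.36, edgeR), -0.44 ± 0.24 for Ednra (0.44), 0.11 ± 0.16 for Edn1 (0.79), -0.03 ± 0.06 for Ece1 (0.84) and -0.09 ± 0.05 for Ece2 (0.44). None passed. Of the 7 genes, Ednrb was the 1 whose KO libraries all lay above all control libraries at both ages.

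Markers of other cells differed between 12-month KO and control without overlap: 10 ganglion cell markers summed to 968 to 1012 CPM in KO and 1056 to 1103 CPM in control, 10 microglia markers to 64.7 to 70.1 CPM in KO and 62.4 to 64.2 CPM in control, and 8 cornea and conjunctiva markers to 6.52 to 9.79 CPM in KO and 2.06 to 2.70 CPM in control, with Kera at 0 in every library. At 3 months the microglia markers summed to 50.8 to 51.4 CPM in KO and 46.9 to 48.2 CPM in control, also without overlap. Their part in the values of the endothelin system genes was not tested.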
